A study of Mus musculus with 20 samples.

Results

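Deptor, the gene of an mTOR-binding protein, was followed through all clones annotated to it, and to no other gene, on 2 designs of spotted cDNA array. These were 2 of the 7680 clones of the first design, clone 773 and clone 11974, and 0 of the 7680 clones of the second. Clones are called here by the row of their first spot. They carry different EST accessions and sit in different printing blocks, 3 and 34, and each is spotted 2 times. In all the designs held 6970 named genes. Deptor was selected on its large ratios in brown adipose tissue on these same arrays, so those ratios are a description without a test. The gene was tested in liver, but the liver values were known when it was chosen, so they are not independent of the choice.

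The Deptor protein binds mTOR through its PDZ domain and restrains the kinase. mTOR is the catalytic subunit of mTORC1, which promotes protein and lipid synthesis and holds back autophagy, and of mTORC2, which phosphorylates Akt downstream of insulin. Deptor protein is itself phosphorylated and then degraded through the ubiquitin ligase SCF with the F-box proteins of the beta-TrCP family, so mRNA and protein need not run in parallel. In fat, insulin and mTORC1 signalling drive lipid synthesis, and Deptor has been linked to adipocyte formation in mice.

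The arrays compared RNA of the Fob3b mouse line with RNA of the F line, in brown adipose tissue (BAT), the heat-producing fat depot, and in liver. The F line was bred for high fatness. The Fob3b line has the F background, with lean-line alleles in a chromosome 15 segment that holds the Fob3b obesity locus. Each line and tissue was represented by 2 pools of total RNA. On the first design, pools of the same number formed a pair, Fob3b with F, and every pair was hybridised with the dyes both ways. This gave 4 arrays of BAT and 4 of liver. A further 2 self-self arrays held liver pool 1 of a single line in both channels, 1 for Fob3b and 1 for F. The second design, which lacks Deptor, was used for other genes through 2 dye-swapped arrays of BAT pool pair 1 and 4 arrays of both liver pool pairs. The free-text descriptions of those BAT arrays name the F line alone, and that of the Fob3b self-self array names both lines. The channel labels, which differ from these, were followed. The sources used here do not give age, sex, diet or the number of animals in a pool. With n of 2 pool pairs per tissue, a p-value rests on the spread between pool pairs. That spread was estimated once for both tissues of a design and moderated by limma towards that of all features. In the main fit of the first design it had 2 residual and 7.89 prior degrees of freedom. Every value is a log ratio of the dyes, with base 2 assumed because the labels give none, after the median clone of the array was subtracted. Ratios were turned so that a positive value stands for more Deptor RNA in Fob3b mice, provided that the deposited ratio is red over green. The labels do not say which dye was the numerator: if it was green, all signs of the line ratios given here turn together. Without intensities, the level of Deptor within a tissue and the number of mRNA copies remain unknown, and fewer cells of a type cannot be told apart from less RNA per cell.

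In BAT both Deptor clones lay on the positive side on all 4 arrays. Clone 773 had log2 ratios of 3.33 with Fob3b in red and 3.19 with Fob3b in green in pool pair 1, and of 2.17 and 0.75 in pool pair 2. Clone 11974 had 1.53 and 0.99 in pool pair 1 and 1.59 and 0.27 in pool pair 2. The array of pool pair 2 with Fob3b in green was thus the lowest of the 4 for both clones, and the paired spots of a clone were at most 0.35 apart on any array of the design. Clone 773 ranked first from the top of 7680 clones on 3 of these arrays and at 542 on the fourth, while clone 11974 ranked at 7, 736, 11 and 2130 in the order given. Of all clones 2.7% were positive on all 4 BAT arrays, and the choice of the gene used these arrays, so the count of 2 out of 2 carries no further weight.

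**Figure D1:**
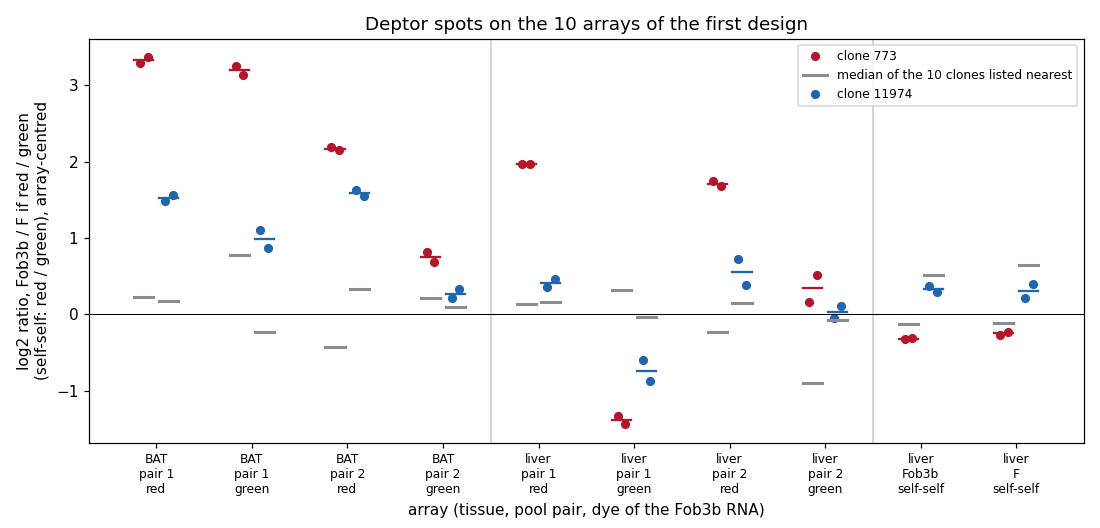
Each dot is 1 spot of a Deptor clone on 1 of the 10 arrays of the first design, with short coloured lines at the clone means and grey lines at the median of the 10 clones listed nearest in the same printing block. The y axis is the centred log2 ratio, turned to Fob3b over F for the line arrays and left as red over green for the self-self arrays. All BAT spots lie above 0, and clone 773 reaches 3.33 there, whereas clone 773 lies at -1.39 on the liver array of pool pair 1 with Fob3b in green and the clone means on the self-self arrays lie between -0.32 and 0.33.

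Averaged over dye orientations, clone 773 had 3.26 in BAT pool pair 1, a 9.59-fold difference, and 1.46 in pool pair 2, a 2.75-fold difference. Its mean was 2.36 ± 1.27 (SD, n = 2 pool pairs), or 5.13-fold. Clone 11974 had 1.26 and 0.93, and averaged 1.09 ± 0.23 (SD, n = 2 pool pairs), or 2.14-fold. The clones agreed in sign and in which pool pair was the larger, and clone 773 gave the wider ratio on every BAT array. With the clones averaged, Deptor had 1.73 ± 0.75 (SD, n = 2 pool pairs), and among 6769 features (genes, and clones without a single gene) this was the largest mean in size. Scd2, a stearoyl-CoA desaturase named here after its value was seen, came next at 1.21. At an adjusted limma p under 0.05, 0.0% of the 6769 features were called in BAT, 0 in either direction, and 58 had an unadjusted p under 0.05.

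The 10 clones listed nearest to clone 773 in its block had medians of 0.22 and 0.78 in BAT pool pair 1 and of -0.44 and 0.21 in pool pair 2, with Fob3b in red and then in green. Clone 773 lay above the highest of them on 3 of the 4 arrays, and on the array of pool pair 2 with Fob3b in green, where it had 0.75, the highest of them had 0.88. For clone 11974 the nearest clones had medians of 0.17 and -0.23 in pool pair 1 and 0.34 and 0.10 in pool pair 2, and on that same array, where clone 11974 had 0.27, the highest of them had 1.16. With the median of each printing block subtracted in place of that of the array, the BAT ratios of clone 773 became 3.12, 2.40, 2.42 and 0.70 and those of clone 11974 became 1.34, 1.25, 1.12 and 0.48. In liver the ratios of clone 773, described next, became 1.76, -1.55, 1.94 and 1.29, and on the last of these arrays the block median was -0.96.

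In liver the ratios of Deptor differed between the dye orientations. Clone 773 had 1.97 with Fob3b in red and -1.39 with Fob3b in green in pool pair 1, and 1.71 and 0.34 in pool pair 2. Clone 11974 had 0.41 and -0.74 in pool pair 1 and 0.55 and 0.03 in pool pair 2. Each clone was thus positive on 3 of the 4 liver arrays and negative on the array of pool pair 1 with Fob3b in green. Thus 0 of 2 clones were positive on all 4 liver arrays, where 4.79% of all clones were. Clone 773 stood at rank 1 from the top of 7680 clones on the liver array of pool pair 1 with Fob3b in red and at 7404 on its dye swap.

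Averaged over the orientations, clone 773 had 0.29 and 1.02 in liver pool pairs 1 and 2, and averaged 0.66 ± 0.52 (SD, n = 2 pool pairs). Clone 11974 had -0.17 and 0.29, and averaged 0.06 ± 0.32 (SD, n = 2 pool pairs). The gene mean was 0.36 ± 0.42 (SD, n = 2 pool pairs), within the spread between the pool pairs, with a moderated SE of 0.26, an unadjusted limma p of 0.204 and an adjusted p of 1. Fitted clone by clone, clone 773 had an unadjusted limma p of 0.0857 and clone 11974 one of 0.768, and both had an adjusted p of 1. In this comparison 0.0% of the features were called, and 207 of 6769 had an unadjusted limma p under 0.05. The liver mean also differed between the arrays of the 2 dye orientations. With only the arrays of Fob3b in red it was 1.16 (adjusted limma p 0.115), and with only those of Fob3b in green it turned to -0.44 (adjusted limma p 0.825).

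On the dye-swapped arrays, the part of a ratio that turns with the line label can be set apart from the part that does not turn. The mean of the 2 centred arrays of a pool pair before turning is called the dye part here. A pool pair has a single array per orientation, so both parts also hold effects of the slides, which cannot be told apart. For clone 773 the dye part was 0.07 and 0.71 in BAT pool pairs 1 and 2, and 1.68 and 0.69 in liver pool pairs 1 and 2. The value of 1.68 was the highest of all 7680 clones in liver pool pair 1, where the middle 99% of clones lay between -0.63 and 1.02. For clone 11974 the dye part was 0.27 and 0.66 in the BAT pool pairs and 0.57 and 0.26 in the liver pool pairs, inside the middle 99% of clones in each.

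The 2 self-self arrays show what the clones read when both channels held the same liver pool. Clone 773 had -0.32 on the Fob3b array and -0.25 on the F array, both as red over green. Clone 11974 had 0.33 on the Fob3b array and 0.30 on the F array. The self-self values of clone 773 were thus opposite in sign to its dye part in both tissues, and those of clone 11974 had the sign of its dye part. Block 34, which holds clone 11974, had medians of 0.33 on both self-self arrays, and with the block centred clone 11974 had -0.01 on the Fob3b array and -0.03 on the F array. Block 3, which holds clone 773, had medians of -0.15 on the Fob3b array and -0.13 on the F array. With that block centred, clone 773 had -0.17 and -0.12 on these arrays. BAT pool pair 1, with the largest line ratio of clone 773, had its smallest dye part.

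**Figure D2:**
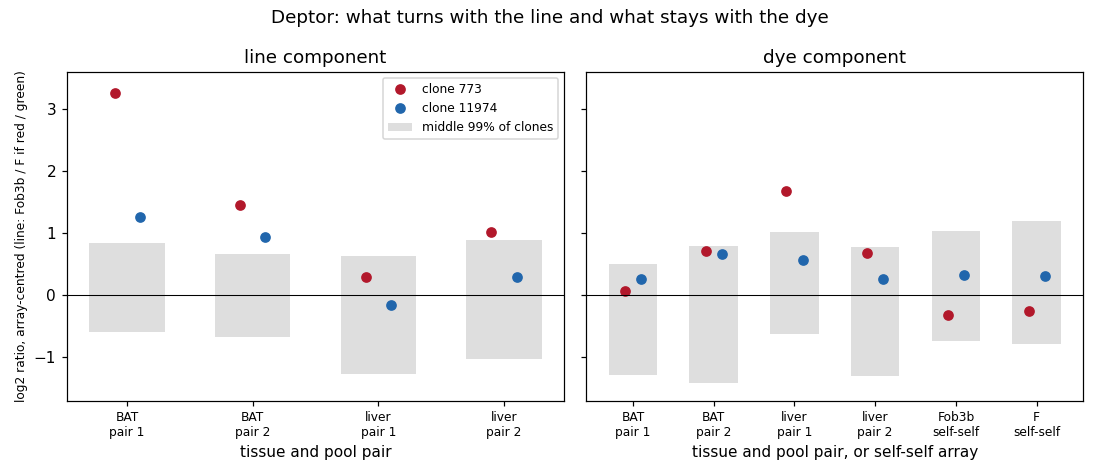
For each pool pair of the first design, the left panel shows the line component of the 2 Deptor clones (the mean of the dye-swapped arrays after turning) and the right panel their dye component (the mean before turning), with the self-self arrays added, all as centred log2 ratios. Grey bars span the middle 99% of the 7680 clones. Both clones lie above the bar for the line in both BAT pool pairs, and clone 773 also does in liver pool pair 2, at 1.02. Clone 773 lies above the bar for the dye, at 1.68, in liver pool pair 1.

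The difference between tissues for Deptor, BAT minus liver, was 1.37 for the gene mean, 1.70 for clone 773 and 1.03 for clone 11974. It rests on the BAT values for which the gene was chosen and is given without a test. On the plane of the pool pairs, both clones lay apart from the mass of clones in BAT, whereas in liver clone 11974 lay within it and clone 773 lay above the middle 99% of clones in pool pair 2, which ended at 0.89. Across all 7680 clones the pool pairs correlated at -0.24 in BAT and -0.20 in liver, a description across clones of 1 array design that share dyes and printing blocks. As deposited, the dye orientations correlated across clones at 0.23 and 0.60 in BAT pool pairs 1 and 2, and at -0.16 and 0.29 in liver pool pairs 1 and 2. The correlation was positive in 3 of the 4 pool pairs and negative in liver pool pair 1.

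**Figure D3:**
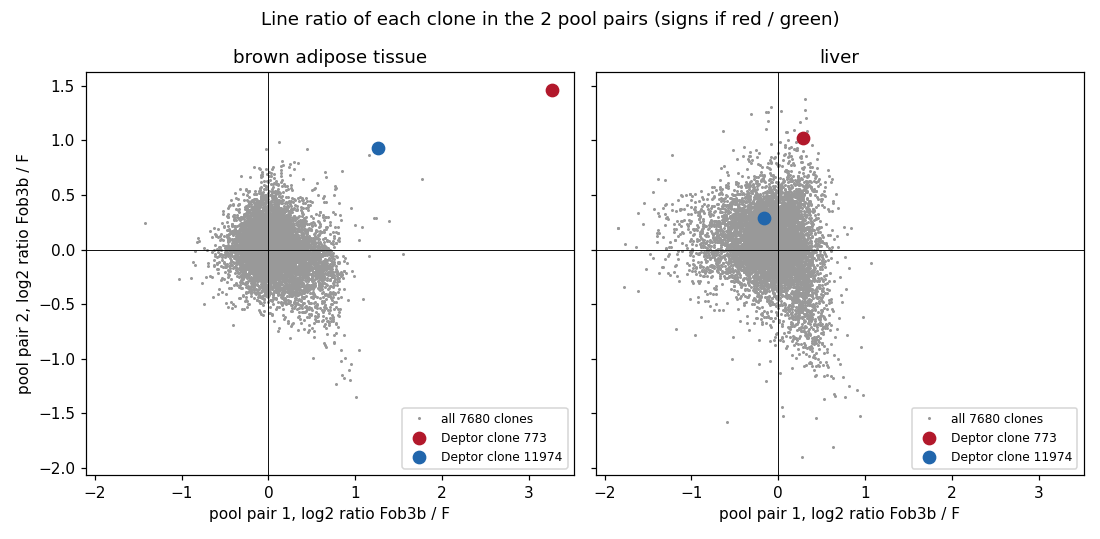
Each grey point is 1 of 7680 clones, with its log2 line ratio in pool pair 1 on the x axis and in pool pair 2 on the y axis, for BAT on the left and liver on the right. The coloured points are the Deptor clones: clone 773 lies at 3.26 and 1.46 in BAT, and at 0.29 and 1.02 in liver.

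Genes of the mTOR pathway were examined from lists of 99 genes besides Deptor, of which 36 were measured on the first design, 38 on the second and 10 on both. On the first design none of the 36 passed the limma test in BAT in either direction, and 0 had an unadjusted p under 0.05, against 0.0% of features called. Of these genes 26 were positive in BAT with a median of 0.05, beside 60.2% of 3838 genes positive and a median of 0.04 over all of them. In liver 14 of the 36 were positive with a median of -0.06, beside 45.4% and -0.02 over all genes, and 0 passed, with 1 at an unadjusted limma p under 0.05. The liver median of the 36 was -0.19 and 0.10 in pool pairs 1 and 2. The largest BAT ratio among the 36 was 0.40 in size, against 1.73 for Deptor. Deptor was selected on its large BAT ratios, so this gap carries no weight.

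Among subunits and binding partners of the mTOR complexes, Mlst8, the subunit that mTORC1 and mTORC2 share, had -0.56 and -0.05 in BAT pool pairs 1 and 2. Akt1s1, which encodes the mTORC1 inhibitor PRAS40, had -0.10 and 0.04. Prr5, a component of mTORC2, had 0.03 and 0.26. None of these 3 passed in BAT or liver. Mtor itself was measured on the second design alone, where it had 0.27 in BAT pool pair 1, and -0.56 and 0.01 in the liver pool pairs. On the same design Tti1, which helps to assemble mTOR complexes, had -0.34 in BAT pool pair 1 and a mean of -0.29 in liver (adjusted limma p 0.361), and Fkbp1a, the rapamycin-binding FKBP12, had 0.25 in BAT pool pair 1 and a mean of 0.09 in liver.

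Upstream of mTOR, 13 of 15 genes measured on the first design were positive in BAT, with a median of 0.05. Over all genes 60.2% were positive there, with a median of 0.04. Sec13, a nuclear pore and GATOR2 component, had the highest mean at 0.30, and Prkag1, a regulatory subunit of AMPK, had 0.21. The list values given here were centred by array, not by printing block. Sec13 had 0.44 and 0.16 in BAT pool pairs 1 and 2. The clones listed just before and after it had 0.36 and 0.62 in pool pair 1, and 0.17 and -0.25 in pool pair 2. Gsk3b, a kinase inhibited by Akt, had a mean of 0.19, with -0.15 and 0.54 in pool pairs 1 and 2. On the second design Gsk3b had the opposite sign in BAT pool pair 1, with 0.29. Rragd, a Rag GTPase that carries amino acid signals to mTORC1, had -0.23 on the first design. The BAT medians by pool pair were -0.00043 and 0.14. In liver 6 of the 15 were positive with a median of -0.13, beside 45.4% and -0.02 over all genes, and the sign turned between pool pairs, with medians of -0.33 and 0.08. There Pdpk1, the kinase that phosphorylates Akt and S6 kinase, had the lowest mean at -0.70 with -1.20 and -0.20 in pool pairs 1 and 2 (unadjusted limma p 0.0174, adjusted p 1). Pik3r1, a regulatory subunit of PI3-kinase, had -0.39 in liver, and Tbc1d7, a partner of the TSC complex, had 0.37.

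Downstream of mTOR, 8 of 13 genes on the first design were positive in BAT, with a median of 0.05, beside 60.2% and 0.04 over all genes. Tfeb, a transcription factor of lysosomal genes that mTORC1 keeps in the cytosol, had 0.74 and 0.05 in BAT pool pairs 1 and 2. Ulk1, the autophagy kinase inhibited by mTORC1, had -0.11 and 0.41. In liver Eif4e, the cap-binding translation factor, had -0.03 and 0.79 in pool pairs 1 and 2, and averaged 0.38. On the second design Eif4e had 0.17 and 0.29 in the same liver pool pairs (unadjusted limma p 0.0249, adjusted p 0.387). In BAT pool pair 1 on the second design 7 of 14 downstream genes were positive. Their median was -0.001, beside 57.5% positive and a median of 0.03 over all genes. The highest was Srebf1, the lipogenic transcription factor whose processing mTORC1 promotes, with 0.36 there and a mean of -0.03 in liver. The lowest was Pdcd4 with -0.33 in BAT pool pair 1, and Sgk1 had -0.22.

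Of 8 genes for the turnover of the Deptor protein 5 were measured on the first design. Cul1, the scaffold of the SCF ligase, had 0.47 and 0.10 in BAT pool pairs 1 and 2, and Skp1, its adaptor, had 0.07 and 0.26. Btrc, which encodes beta-TrCP, had -0.05 and -0.15 in BAT, and its paralogue Fbxw11 had 0.05 and 0.22. On the second design Btrc had -0.35 in BAT pool pair 1, and -0.29 and -0.15 in the liver pool pairs (unadjusted limma p 0.0285, adjusted p 0.409). In the liver pool pairs on the first design Btrc had the opposite sign, with 0.08 and 0.16. Cul1, with 3 clones on the second design, had -0.03 there in BAT pool pair 1, against 0.47 on the first design. Over all 38 mTOR genes of the second design, 18 were positive in liver with a median of -0.01 beside 51.8% and 0.01 over its 4075 genes, and 0 passed against 0.0% of features called. An unadjusted limma p under 0.05 was found for 4 of them, and for 690 of all 6900 features (10%), which is about the same share. In BAT pool pair 1 alone 23 of the 38 were positive with a median of 0.04, beside 57.5% and 0.03 over all genes.

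**Figure D4:**
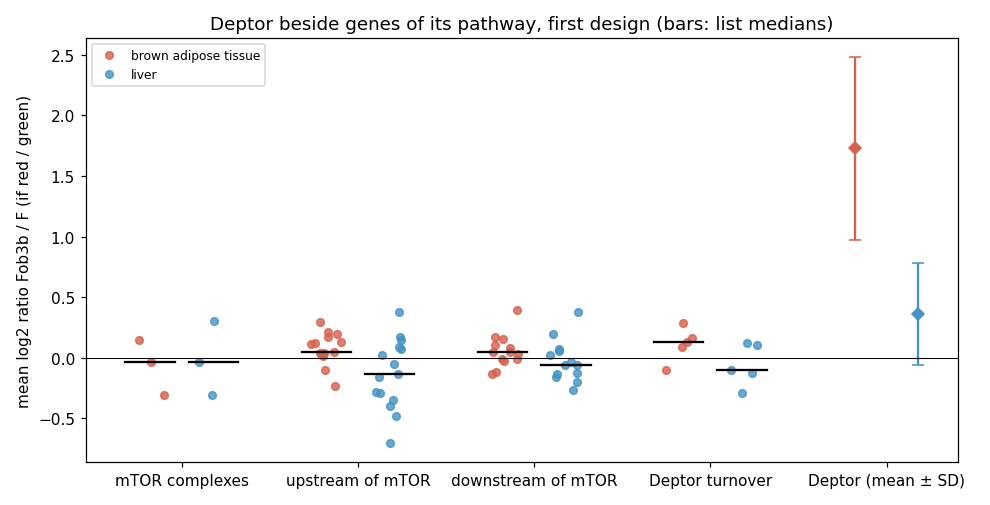
Mean log2 ratios of genes of 4 mTOR pathway lists on the first design are shown in BAT (red dots) and liver (blue dots), with black bars at list medians, beside Deptor as mean ± SD over 2 pool pairs. The pathway genes lie between -0.31 and 0.40 in BAT and between -0.70 and 0.38 in liver, and Deptor lies at 1.73 in BAT and 0.36 in liver.

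Deptor lies on chromosome 15, and the genes beside it were examined for a ratio of like size. In the order of the reference gene table, the nearest measured genes were Ext1, 9 protein-coding genes before Deptor, and Col14a1, the next one after it. Ext1, a heparan sulfate polymerase, had 0.45 and -0.02 in BAT pool pairs 1 and 2 on the first design. Col14a1, a fibril-associated collagen, had -0.32 in BAT pool pair 1 on the second design. Mrpl13, a mitochondrial ribosomal protein gene 2 places after Deptor, had 0.11 and 0.10 in BAT pool pairs 1 and 2. Derl1, of the machinery that removes misfolded proteins from the endoplasmic reticulum, had 0.13 and 0.28 in BAT on the first design and 0.22 in BAT pool pair 1 on the second.

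Among the other neighbours, Utp23 of ribosome biogenesis had 0.58 and -0.20 in the BAT pool pairs, Tbc1d31 had 0.53 and -0.11, and Med30 of the Mediator complex had -0.06 and 0.20. These ratios were centred by array, not by printing block. The clones listed just before and after that of Utp23 had 0.38 and 0.68 in BAT pool pair 1, and -0.22 and -0.42 in pool pair 2. Those beside the clone of Tbc1d31 had 0.29 and 0.42 in pool pair 1, and 0.03 and -0.13 in pool pair 2. On the second design Rad21 of cohesin had -0.13, Mtbp -0.05 and the initiation factor gene Eif3h 0.08 in BAT pool pair 1. None of these 10 neighbours reached the BAT ratio of Deptor in pool pair 1, nor did the 6 measured in pool pair 2. Deptor was selected on its large BAT ratios, so this outcome was set by that choice and carries no weight. None of the 10 neighbours passed the limma test where it was run, in BAT on the first design or in liver on either design. In each of these comparisons 0.0% of all features passed. Sqle, the squalene epoxidase gene, is separated from Deptor by 25 protein-coding genes and had 1.16 and -0.06 in BAT pool pairs 1 and 2. Of the 158 genes of chromosome 15 on the first design the median BAT mean was 0.05, and after Deptor the largest in size was that of Slc25a17, a peroxisomal carrier, at -0.65. Sqle and Slc25a17 were named after their values were seen.

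**Figure D5:**
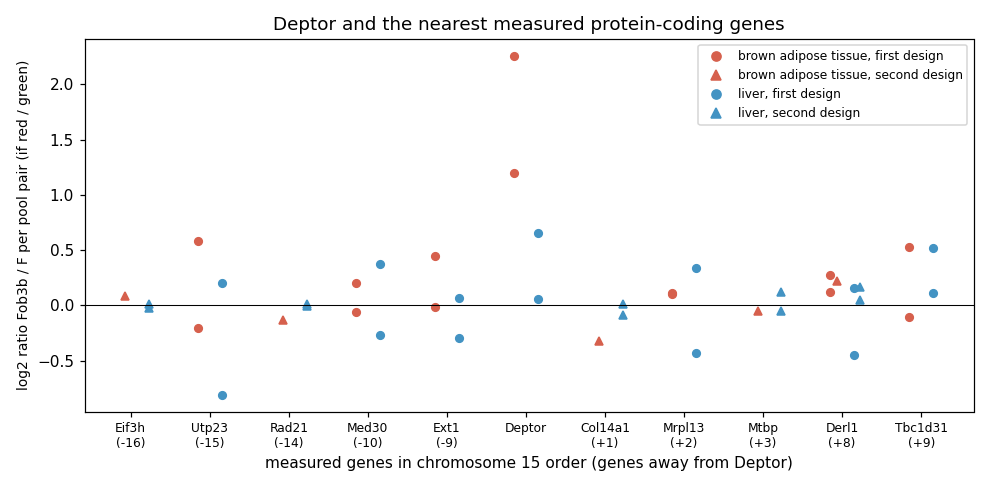
Log2 line ratios per pool pair are shown for Deptor and the 5 nearest measured protein-coding genes on each side, in chromosome 15 order, with the number of genes from Deptor in brackets. Circles are the first design and triangles the second, red is BAT and blue is liver. Ratios are centred by array, not by printing block. Deptor in BAT lies at 2.26 and 1.20, and no neighbour exceeds 0.58 in BAT.

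The 8 genes whose profile was most like that of Deptor over the 8 line arrays of the first design were Zwint, Anapc7, Hspa4, Dhrs1, Me1, Lap3, Stard5 and Fdft1. Their Pearson r with the Deptor mean ran from 0.935 to 0.963, among 2573 genes with a range of at least 1 on the log2 scale, and the 2 Deptor clones had an r of 0.90 with each other. These 8 arrays come from 4 pool pairs and share dyes, so r is a description. Fdft1, the squalene synthase, had 1.45 with Fob3b in red and 0.86 with it in green in BAT pool pair 1, and 1.77 and -0.03 in pool pair 2. In liver Fdft1 had 0.58 and -1.25 in pool pair 1 and 1.0 and -0.02 in pool pair 2. Like Deptor, it was lowest of all 8 arrays on the liver array of pool pair 1 with Fob3b in green. Me1, the malic enzyme, had 1.31 and 1.14 in BAT pool pair 1, 0.66 and -0.09 in pool pair 2, and -1.11 at its lowest, on the same liver array. The other 6 genes had small BAT means, between 0.04 and 0.30. The list depended on the centring: 0 of the 8 genes were among the first 8 with printing blocks centred, 1 with no centring and 5 when all arrays were given the same spread.

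Markers of other cell types were few. On the first design, 2 of 11 skeletal muscle markers were measured, and both had negative BAT means, Tpm2 with -0.89 and -0.26 in pool pairs 1 and 2 and Actn3 with -0.57 and -0.37. On the second design Tpm2 and Mylpf had 0.74 and 0.69 in BAT pool pair 1, so Tpm2 had opposite signs on the designs for RNA labelled as the same pools. The 4 hepatocyte markers measured of 8, Alb, Apoa1, Fga and Ttr, had BAT means between -0.17 and 0.21, and the 1 macrophage marker measured of 7, Lyz2, had -0.01. The part of any of these cells in the BAT ratio of Deptor was not tested. In liver, where Deptor had 0.36, Alb had -0.74 and Lyz2 -0.44, neither of which passed the limma test. Markers of brown or white adipocytes and of red cells were not measured on the first design. On the second design the brown adipocyte marker Elovl3 had -0.05 in BAT pool pair 1 and a mean of 0.02 in liver. There the red cell markers Alas2 and Hbb-b1 had -0.28 and 0.01 in BAT pool pair 1, and means of -0.06 and -0.23 in liver. Ratios within a tissue do not show whether a tissue expresses its own markers.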

How the data were processed

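The deposited tables of 20 arrays hold, for every spot, a single log ratio between dyes, read here as log2. The sources used here do not give how the authors made it, its log base or its numerator. Base 2 was taken because base 10 would turn the highest value, 7.12, into a ratio of 1.31e+07, and a natural logarithm is not excluded. Array medians ran from -0.82 to 1.40, so values had not been centred. Channel labels were used where a description differed. Each design had 17280 spots in 48 blocks. Spots 160 rows apart were paired, as in all 4976 annotated pairs of the first design, and 1920 control spots were left out. The correlation of paired spots was 0.760 to 0.932 on the first design.

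Arrays were centred on their median clone and turned by channel label, spots and then dye-swapped arrays were averaged, and clones of 1 gene were averaged. Both tissues of a design were fitted together with limma 3.58.1 in R 4.3.3, two-sided, with Benjamini-Hochberg adjustment over all features. The BAT pool pair on the second design was not tested. The number of arrays limits the precision. Symbols, and which genes neighbour each other, come from the arrays' annotation and the table of GRCm38.p6. No coordinates or sequences are given. Members, lists and tests were chosen with earlier results of these data known. Genes named were both Deptor clones, the 8 most alike, up to 6 members of each list and 5 measured neighbours per side.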

Additional observations from a re-analysis of the deposited data

How the results depend on the processing

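The BAT mean of Deptor was positive under all 14 alternatives, from 1.09 (clone 11974 by itself) to 2.36 (clone 773 by itself). It was 1.20 without pool pair 1 and 2.26 without pool pair 2. Both clones were positive on all 4 BAT arrays, on which the gene was selected, so the kept sign carries no further weight. Fitting each array as its own replicate, a tissue alone or a replicate block leaves the mean of either tissue unchanged by arithmetic. The liver mean turned to -0.44 with Fob3b in green only and was positive, from 0.06 to 1.16, under the other 13. It passed the limma test under none of them (adjusted p 0.115 to 1). Without centring, the median feature lay at 0.30 in BAT and -0.10 in liver, and Deptor lay at 2.0 and 0.27.

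Of all features in BAT, 0 were called as reported, and 1, Deptor, with no centring, with BAT fitted alone and without either liver pool pair (0 to 1 over the pool pairs left out). Deptor was selected on these BAT ratios, so those calls are no test of it. With Fob3b in red only 215 were called, 37 positive and 178 negative. In liver 0 were called, and 0 to 33 with a pool pair left out. On the second design 0 were called in liver, 156 with no centring, 31 with the second spot only, 1 with every array its own replicate and 25 with clones fitted one by one. No mTOR pathway gene was called under any alternative. Of the 8 genes most like Deptor, 1, 0 and 5 were kept with no centring, printing blocks centred and arrays scaled. The cause of these changes was not tested.

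The pool numbers are shared by BAT and liver, and the labels do not say whether the pools came from the same animals. Deviations of same-numbered pools correlated at 0.38 across clones. The pool number as a replicate block cannot change the means of Deptor, 1.73 in BAT and 0.36 in liver. With it the adjusted limma p in liver was 0.816, and 0 features were called. On the second design the block, and leaving out a liver pool pair, could not be fitted for lack of residual degrees of freedom.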
